A study of Arabidopsis thaliana with 15 samples.

Results

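HYH (AT3G17609) encodes the closest homologue of HY5 in Arabidopsis thaliana, and its transcript was followed over 15 leaf samples, 1 Affymetrix ATH1 array each. It was read from 1 probe set, 258349_at, the only one that the annotation used here pairs with HYH alone. HYH is thus 1 of 13356 genes with a probe set of their own. In the RefSeq gene table of TAIR10.1 it is a protein-coding gene of chromosome 3, between IAA31 and RBL14. The array annotation names no build, so neither position nor sequence is printed.

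The plants were of the accession Landsberg erecta and were wildtype or carried the mutation uvr8-1 or hy5-1. All spent 3 weeks in compost at 21 °C under white light, given without a dark period at 25 µmol m-2 s-1. The UV-B groups then received UV-B at 3 µmol m-2 s-1 for 4 h, and the white light groups had no further treatment. Wildtype and uvr8-1 were sampled in both conditions and hy5-1 only under UV-B, with 3 biological replicates in each of the 5 groups and no white light control for hy5-1.

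HYH and HY5 are bZIP transcription factors, which dimerise through a leucine zipper and bind DNA through a basic region, preferring elements with an ACGT core. Both promote light responses such as flavonoid synthesis, can pair with each other, and are degraded in darkness through the ubiquitin ligase COP1. UVR8 is the UV-B photoreceptor: absorption of UV-B splits its dimer, and the monomer binds COP1, which leads to higher HY5 and HYH expression. The comparisons ask how far the HYH transcript responds to UV-B and how this depends on UVR8 and on HY5.

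The values are log2 intensities, and those of different probe sets are not set against each other as amounts of transcript. Array medians lay between 4.31 and 4.4, and 22746 probe sets were tested. UVR8, HY5 and COP1 had no probe set paired with them alone, so the mutant labels were not checked against the mutated genes. The leaf marker genes LHCB4.2, of a light-harvesting protein, and ATPC1, of the chloroplast ATP synthase, had white light means of 10.96 and 11.49 in wildtype. PYK10, listed as a root marker, had 8.03, and FMA, of guard cell differentiation, 6.08. These were the measured ones of 5 leaf, 4 root and 10 epidermal or guard cell markers. Under UV-B both leaf markers fell in both genotypes (LHCB4.2 at −2.34 in wildtype and −1.48 in uvr8-1, ATPC1 at −0.59 in each). PYK10 and FMA fell in uvr8-1, at −0.76 and −0.43. In wildtype they were at −0.45 and −0.39, not called, and neither differed in response between the genotypes by limma. FMA was also lower in hy5-1 than in wildtype under UV-B (−0.55 ± 0.15). The FMA calls were narrow (adjusted p of limma 0.0457 and 0.0475) and neither held without variance moderation. Among all probe sets 30.5% were called in wildtype, 31.9% in uvr8-1 and 7.59% between hy5-1 and wildtype. The part of these markers in the HYH results was not tested. A 3' minus 5' index, the mean difference of the actin, GAPDH and ubiquitin control probe sets, was 2.78 ± 0.32 (SD, n = 3) in hy5-1. It lay between 1.83 and 2.18 as a mean in the other groups. With 3 arrays a group, the number of arrays limits the precision.

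In wildtype leaves HYH was low in white light and high after 4 h of UV-B. Its values in white light were 3.53, 2.82 and 4.36 in replicates 1, 2 and 3. Under UV-B they were 7.58, 8.43 and 8.15. The lowest UV-B array stood more than 3 log2 units above the highest white light array, and the groups do not overlap. By brightness, HYH passed 16.0% to 50.0% of the probe sets of its own array in white light and 88.0% to 92.8% under UV-B.

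**Figure D1:**
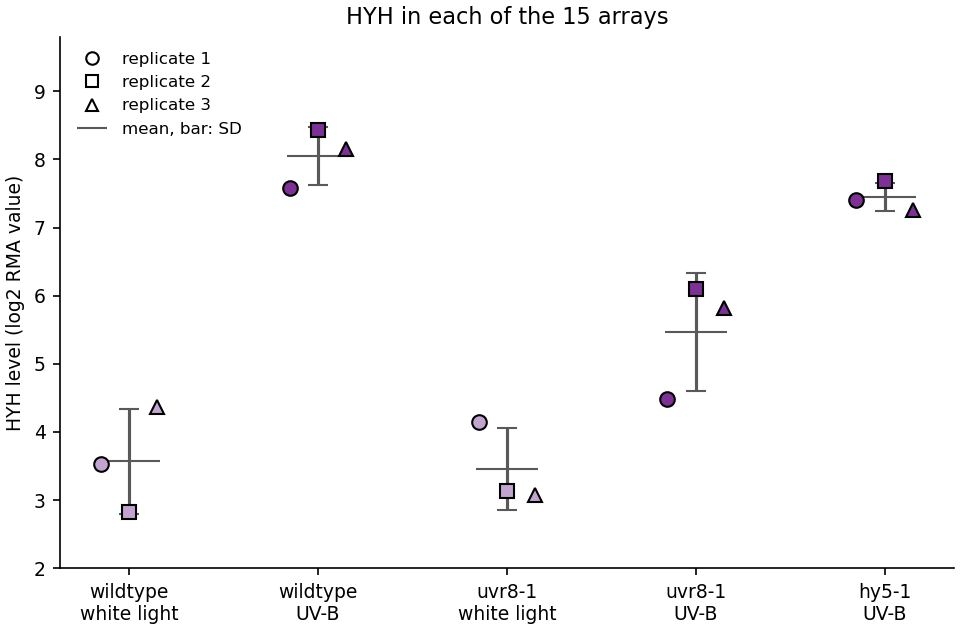
HYH level (log2 RMA value) in every array, with groups on the x axis, symbol shape for the replicate number, and a horizontal line with bars for mean and SD (n = 3). Wildtype under UV-B (7.58 to 8.43) and hy5-1 under UV-B (7.26 to 7.68) overlap, uvr8-1 under UV-B (4.48 to 6.10) lies between them and the white light groups, and the white light groups (2.82 to 4.36 and 3.08 to 4.15) overlap.

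The mean of HYH went from 3.57 ± 0.77 to 8.05 ± 0.43 (SD, n = 3). HYH rose by 4.48 ± 0.45 (log2 difference ± SE of the limma model), with a 95% confidence interval of 3.52 to 5.45. On the linear scale this is 22.4-fold, with an interval of 11.4 to 43.8. The adjusted p of limma was 6.82e-06, and 30.5% of all probe sets were called in this comparison, 12.2% as higher and 18.3% as lower. By size of rise HYH ranked 97 of 22746. The white light values are dim, no detection call came with them, and the fold depends on them. A gene's lower level in whole leaves can be fewer cells with the transcript or less of it per cell, which cannot be told apart here.

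In uvr8-1, a mutant of the photoreceptor gene, HYH also rose under UV-B. Replicates 1, 2 and 3 gave 4.15, 3.14 and 3.08 in white light and 4.48, 6.10 and 5.81 under UV-B. Replicate 1 was the highest of the white light arrays and the lowest of the UV-B arrays, and the groups stand apart by only 0.33, between these 2 arrays. The mean went from 3.46 ± 0.60 to 5.47 ± 0.86 (SD, n = 3), a difference of 2.01 ± 0.45 (interval 1.04 to 2.98, adjusted p of limma = 0.00344) or 4.03-fold. Here 31.9% of all probe sets were called, 12.9% as higher and 19% as lower, and HYH ranked 682 by size of rise.

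The response to UV-B was also measured over each array as a whole. For each UV-B array, its changes were regressed on the mean changes in the genotype it did not belong to, using probe sets that were called there with a 2-fold change or more. The slope was 0.801 for wildtype replicate 1 and 0.765 for uvr8-1 replicate 1, and 0.919 to 1.04 for replicates 2 and 3. HYH was at its lowest UV-B value in replicate 1 of both genotypes, 4.02 above its own white light mean in wildtype and 1.03 in uvr8-1. Against the white light array of the same number, the HYH response in replicates 1, 2 and 3 was 4.06, 5.61 and 3.79 in wildtype, lowest in replicate 3, and 0.33, 2.96 and 2.74 in uvr8-1, lowest in replicate 1. Without the UV-B arrays of replicate 1 in both genotypes, a setting added after the data were seen, the rise was 4.72 in wildtype and 2.50 in uvr8-1. Both were called (adjusted p of limma 3.32e-06 and 0.000457).

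The UV-B response of HYH was smaller in uvr8-1 than in wildtype as a point estimate, but the difference of responses did not pass the test over all probe sets. Its value, uvr8-1 minus wildtype, was −2.47 ± 0.63, with an interval of −3.84 to −1.11, an unadjusted p of 0.00179 and an adjusted p of 0.134 (limma). In this comparison 0.857% of probe sets were called, 0.831% as lower, and HYH ranked 50 from the lowest value. Taken by replicate number, the difference of responses was −3.73, −2.64 and −1.05 for replicates 1, 2 and 3. All 3 are negative, and they range over more than the estimate itself.

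Under UV-B, the level of HYH was lower in uvr8-1 than in wildtype in each pair of equally numbered samples, by −3.10, −2.33 and −2.33. The groups did not overlap, and the difference was −2.59 ± 0.45 (interval −3.56 to −1.62, adjusted p of limma = 0.00539), that is 6.01-fold lower (interval 3.07 to 11.8). In this comparison 2.41% of probe sets were called, 1.99% as lower, and HYH ranked 46 from the lowest value. The call ended when only these 2 groups were fitted (adjusted p = 0.0726). Leaving out any 1 of the 15 arrays kept it, at adjusted p between 0.00381 and 0.0353.

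In white light the HYH levels of uvr8-1 and wildtype overlapped. The difference was −0.11 ± 0.45, with an interval from −1.08 to 0.85 (adjusted p of limma = 1.00). That interval holds a 2.12-fold lower and a 1.81-fold higher level. Its sign turned without wildtype replicate 3 (0.28), or without uvr8-1 replicate 2 (0.04) or 3 (0.08). Among all probe sets 0.0176% were called in this comparison.

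In hy5-1 under UV-B, HYH was not distinguished from the wildtype level. The hy5-1 arrays gave 7.41, 7.68 and 7.26 in replicates 1, 2 and 3, against 7.58, 8.43 and 8.15 in wildtype. The ranges overlap by a narrow margin, since the highest hy5-1 array lies just above the lowest wildtype array. The difference was −0.61 ± 0.45 and was not called (adjusted p of limma = 0.431), with 7.59% of all probe sets called, 4.81% as lower. Its interval, −1.57 to 0.36, holds both no change and a 2.98-fold lower level, so the data do not show that the levels are equal. With the 3' minus 5' index as a covariate it was −1.76 ± 1.02 (adjusted p = 0.999). The spread among the hy5-1 arrays (SD 0.21) was the smallest of the 5 groups.

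HYH was higher in hy5-1 than in uvr8-1 under UV-B. The lowest hy5-1 array was above the highest uvr8-1 array, and the difference was 1.98 ± 0.45 (interval 1.01 to 2.95, adjusted p of limma = 0.0123), or 3.95-fold. In this comparison 13.8% of probe sets were called, 5.37% as higher, and HYH ranked 54 from the top. The call ended without hy5-1 replicate 2 (1.87, adjusted p = 0.0532). It also ended with the 3' minus 5' index as a covariate (0.89 ± 0.98, adjusted p = 1.00). The index is highest in the hy5-1 arrays, 2.43 to 3.04 against 1.77 to 1.97 in the other UV-B arrays, so that index and genotype can hardly be told apart. The comparisons of uvr8-1 and of hy5-1 with wildtype share the wildtype arrays, as those of hy5-1 and wildtype with uvr8-1 share the uvr8-1 arrays.

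The 5 means of HYH were thus ordered as wildtype under UV-B (8.05), hy5-1 under UV-B (7.45), uvr8-1 under UV-B (5.47), wildtype in white light (3.57) and uvr8-1 in white light (3.46). Among neighbours in this order, the first pair and the last pair do not differ beyond their spread. The uvr8-1 level under UV-B was above that of wildtype in white light by 1.90 ± 0.45 (adjusted p of limma = 0.0053, with 30.4% of all probe sets called). This comparison mixes genotype and light, as do those that set hy5-1 under UV-B against the white light groups, with differences of 3.88 ± 0.45 for wildtype and 3.99 ± 0.45 for uvr8-1 (adjusted p of limma 2.18e-05 and 1.64e-05, with 37.2% and 38.5% of all probe sets called). With the 3' minus 5' index as a covariate, the first of these 2 was 2.66 and no longer called (adjusted p = 0.272).

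**Figure D2:**
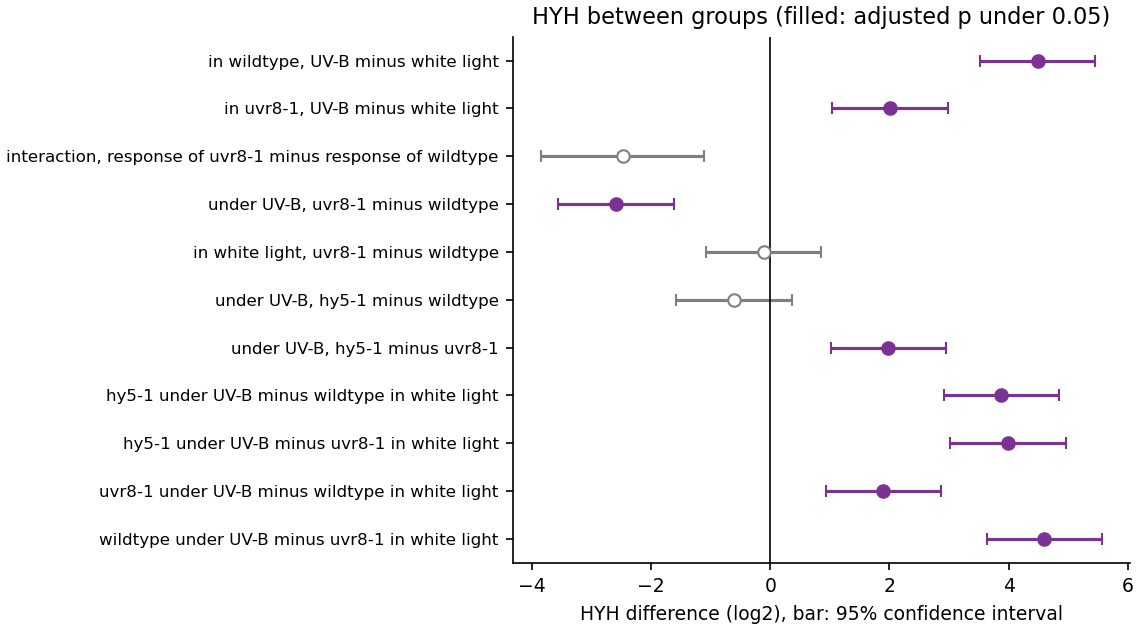
Log2 differences of HYH between groups on the x axis, with 95% confidence intervals from the limma model as bars and filled points for an adjusted p under 0.05. Both UV-B responses, 4.48 and 2.01, are filled, while the difference of responses (−2.47), uvr8-1 minus wildtype in white light (−0.11) and hy5-1 minus wildtype under UV-B (−0.61) are open.

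An exact permutation test over all 1401400 ways to place the 15 values into 5 groups of 3 gave p = 5.35e-05 for the spread of the HYH group means. This test exchanges all values freely and takes no account of the pairing of wildtype and uvr8-1 arrays by number. Between 2 groups of 3 the smallest exact permutation p is 0.1, which was reached for every pair except uvr8-1 and wildtype in white light (0.9) and hy5-1 and wildtype under UV-B (0.2). HYH varied more between replicates than most probe sets. Its residual SD was 0.62, against a median of 0.19, and 97.7% of probe sets had a smaller one.

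The other bZIP genes give the setting of this response. Of 54 genes with a bZIP name besides HYH, 22 had a probe set of their own, and in wildtype 3 rose and 5 fell under UV-B (30.5% of all probe sets were called). Their median difference was −0.06, against −0.04 over all probe sets. The 4.48 of HYH was above the highest value of the 22, that of BZIP60, a factor of the unfolded protein response in the endoplasmic reticulum. BZIP60 went from 6.79 ± 0.30 to 10.01 ± 0.43 (SD, n = 3), a rise of 3.22 ± 0.31 (adjusted p of limma = 4.35e-06). BZIP28, which acts in the same stress response, rose by 0.87 ± 0.13. BZIP61 fell by 3.18, BZIP34, known from pollen development, by 1.57, AT4G38900 (bZIP29) by 0.87 and bZIP19, a sensor of zinc deficiency, by 0.43.

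In uvr8-1, 3 of these 22 bZIP genes rose and 4 fell, against 31.9% of all probe sets called. BZIP60 rose by 3.20 ± 0.31 and BZIP28 by 1.12 ± 0.13, while BZIP61 fell by 2.47, BZIP34 by 1.46, AT4G38900 by 0.79 and bZIP19 by 0.62. The differences of responses between the genotypes ran from −0.18 to 0.72, and limma called none of the 22, with 0 at an unadjusted p under 0.05 and 0 without variance moderation. With 0.857% of all probe sets called there, 0 of 22 is near that background. Between uvr8-1 and wildtype under UV-B none of the 22 was called, with 2 at an unadjusted p under 0.05 and 0 without moderation. The same held in white light, where 0 had an unadjusted p under 0.05 and 0 passed without moderation. The values under UV-B ran from −0.17 to 0.53, where HYH was at −2.59. Since 2.41% of all probe sets were called there, 0 of 22 is near that background.

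Between hy5-1 and wildtype under UV-B none of the 22 bZIP genes was called by limma, with 5 at an unadjusted p under 0.05 and 0 without moderation (7.59% of all probe sets were called). After quantile normalisation 2 were called, and without uvr8-1 UV-B replicate 1 the number was 1. BZIP60 was at 0.68 ± 0.31 and BZIP17, another membrane-bound stress factor, at 0.55 ± 0.18. Against uvr8-1, bZIP19 (0.40 ± 0.11) and bZIP58 (0.36 ± 0.10) were higher in hy5-1, and both calls ended with the 3' minus 5' index as a covariate. In this comparison 13.8% of all probe sets were called, 5.37% as higher, so 2 of 22 is near that background. None of the 22 was called without uvr8-1 UV-B replicate 1 or 3 or hy5-1 replicate 1 or 2, and 1 was without hy5-1 replicate 3.

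**Figure D3:**
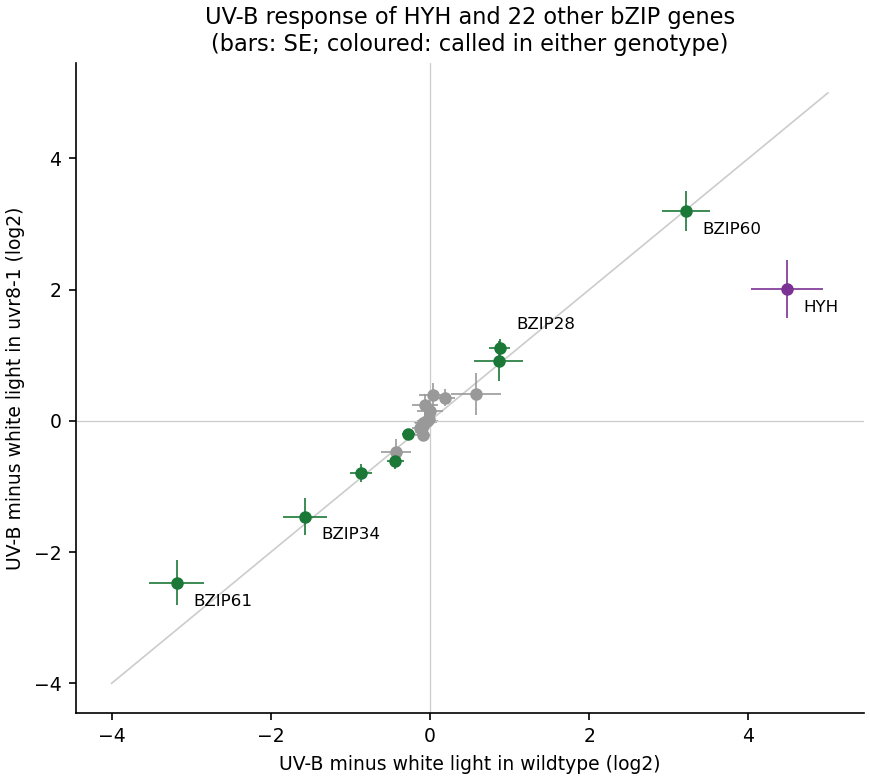
UV-B minus white light (log2) in wildtype on the x axis and in uvr8-1 on the y axis for HYH and 22 other bZIP genes, with SE bars, a line of equal response, and colour for genes called in either genotype. HYH (4.48 and 2.01) lies below the line, while BZIP60 (3.22 and 3.20) and BZIP34 (−1.57 and −1.46) lie near it.

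Of 47 other genes of UV-B and light signalling, 4 had a probe set of their own: CUL4, BIC1, BIC2 and FHL. The BIC proteins inhibit cryptochrome photoreceptors, CUL4 is the cullin of the ubiquitin ligases that hold COP1, and FHL helps to bring phytochrome A into the nucleus. In wildtype 2 of the 4 rose under UV-B (median 1.17, with 30.5% of all probe sets called), BIC1 (AT3G52740) by 2.93 ± 0.31 and BIC2 (AT3G44450) by 2.32 ± 0.46. In uvr8-1, where 31.9% of all probe sets were called, none of the 4 was called by limma, with 0 at an unadjusted p under 0.05 and 0 without moderation, where BIC1 was at −0.49 ± 0.31 and BIC2 at 0.04 ± 0.46. CUL4 and FHL were at −0.25 and 0.01 in wildtype.

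Under UV-B, hy5-1 and wildtype were not distinguished for CUL4 and FHL (0.11 each), which did not rise in wildtype. They were not distinguished for BIC2 either, which is set beside HYH because it did rise. The means of BIC2 were 6.86 ± 0.66 in wildtype, 6.66 in hy5-1 and 3.95 ± 0.40 in uvr8-1 under UV-B. The hy5-1 minus wildtype value was −0.21 ± 0.46 for BIC2 (adjusted p of limma = 0.817) and −1.41 ± 0.31 for BIC1, which was called (adjusted p = 0.0172) along with 7.59% of all probe sets. The BIC1 call ended with the 3' minus 5' index as a covariate (adjusted p = 0.747) and when only the groups compared were fitted. Under UV-B, BIC1 and BIC2 were lower in uvr8-1 than in wildtype by −3.52 ± 0.31 and −2.92 ± 0.46, and both were higher in hy5-1 than in uvr8-1. As for HYH, the calls against uvr8-1 (13.8% of all probe sets) ended with the covariate too, while those between uvr8-1 and wildtype (2.41% of all) held in every setting run.

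Genes reported as targets of HY5 and HYH formed a list of 27, of which 6 had a probe set of their own. This list draws partly on published work on these samples, so its direction is not independent evidence. They are UGT78D2 and AT1G06000, which add sugars to flavonols, CHIL, a helper protein of chalcone synthase, DFR, an enzyme of the anthocyanin branch, UGT84A1, which glucosylates hydroxycinnamates, and AT5G62210. In wildtype all 6 rose, by 2.27 to 3.97 with a median of 2.87 (−0.04 over all probe sets, of which 30.5% were called and 12.2% as higher).

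In uvr8-1 limma called none of the 6 target genes, with 2 at an unadjusted p under 0.05 and 0 without moderation, against 31.9% of all probe sets called. Their values ran from −1.07 for DFR to 0.13 for UGT84A1, the only gene of the 6 above 0. Neither the replicate block nor leaving out a wildtype array changes these values. A call gained there by any gene but UGT84A1 is thus a fall under UV-B, not a rise as in HYH. With the replicate number as a block 2 of the 6 were called there, and without wildtype UV-B replicate 2 the number was 4. Without wildtype white light replicate 2, wildtype UV-B replicate 1 or uvr8-1 white light replicate 3 it was 1 each. The value of HYH there was 2.01, and the difference between HYH and these genes was not tested. The response of all 6 was smaller in uvr8-1 than in wildtype, by −4.37 to −3.07, where 0.831% of all probe sets were called as lower. Over the settings 4 to 6 of them were called, 4 without moderation. AT1G06000 lost this call in 8 settings, 6 of them without 1 array (wildtype white light replicate 1 or 3, uvr8-1 white light replicate 2 or 3, uvr8-1 UV-B replicate 1 or 3), and DFR in 1. Under UV-B all 6 were lower in uvr8-1 than in wildtype (median −3.20), where 1.99% of all probe sets were called as lower.

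Under UV-B all 6 target genes were also lower in hy5-1 than in wildtype, from −0.91 ± 0.23 for UGT78D2 to −3.97 ± 0.30 for AT5G62210, with a median of −2.42, where 4.81% of all probe sets were called as lower. The call of UGT78D2 ended in 8 settings, 4 of them without 1 array (wildtype UV-B replicate 2 or 3, hy5-1 replicate 1 or 2). The value of HYH in this comparison was −0.61 ± 0.45. With the 3' minus 5' index as a covariate none of the 6 was called, and without hy5-1 replicate 2 the number was 3. UGT84A1 shows the pattern: its means under UV-B were 7.37 ± 0.71 in wildtype, 4.70 in hy5-1 and 3.50 ± 0.11 in uvr8-1. HYH had 8.05, 7.45 and 5.47 in the same groups. Against uvr8-1, 2 of the 6 were higher in hy5-1 (5.37% of all probe sets were), UGT78D2 by 2.38 ± 0.23 and UGT84A1 by 1.20 ± 0.26, and neither with the covariate.

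The genes with a pattern most like HYH were taken by Pearson r over the 15 arrays, from 2586 genes whose group means span at least 1 log2 unit. The 10 highest had an r of 0.946 to 0.972, and 68 genes had an r over 0.9. Over the 9 UV-B arrays alone, r was 0.823 to 0.983. After the group means were taken out it was 0.223 to 0.795. These values describe 15 arrays that share their plants' conditions, and no test was made.

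AT5G64780 had the highest r with HYH (0.972). AT4G15680, of the glutaredoxin family, followed with 0.961. SDH2-1, the iron-sulphur subunit of mitochondrial succinate dehydrogenase, had 0.959, AT5G51260, an acid phosphatase-like gene, 0.957, and PUB22, a ubiquitin ligase that restrains immune responses, 0.956. The others were AT2G03240, of the EXS family (0.952), the glucosyltransferase gene UGT73C1 (0.951), the sugar transporter gene SWEET2 (0.948), AT1G21550, of a calcium-binding protein (0.947), and AT3G26590, of a MATE efflux protein (0.946).

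In each of these 10 genes the 3 highest group means came in the order seen for HYH: wildtype, hy5-1 and uvr8-1 under UV-B. All 10 rose in wildtype (1.58 to 4.73) and 9 in uvr8-1 (0.63 to 3.08), the exception being AT5G64780 at 0.44 ± 0.18. Likeness to HYH chose them, so these counts follow from the choice. SDH2-1 had group means of 7.63 ± 0.04 in wildtype and 7.76 ± 0.07 in uvr8-1 in white light, and of 10.49 ± 0.22, 9.85 and 8.40 ± 0.12 in wildtype, hy5-1 and uvr8-1 under UV-B. Its difference of responses, −2.23 ± 0.18, is close in size to the −2.47 ± 0.63 of HYH, with a smaller error, and was called (adjusted p of limma = 2.4e-05). SWEET2 was at −1.80 ± 0.39 (adjusted p = 0.0559) and PUB22 at −1.43 ± 0.60 (adjusted p = 0.626). Differences of responses near that of HYH follow from the choice by likeness too. They are no separate evidence on HYH.

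**Figure D4:**
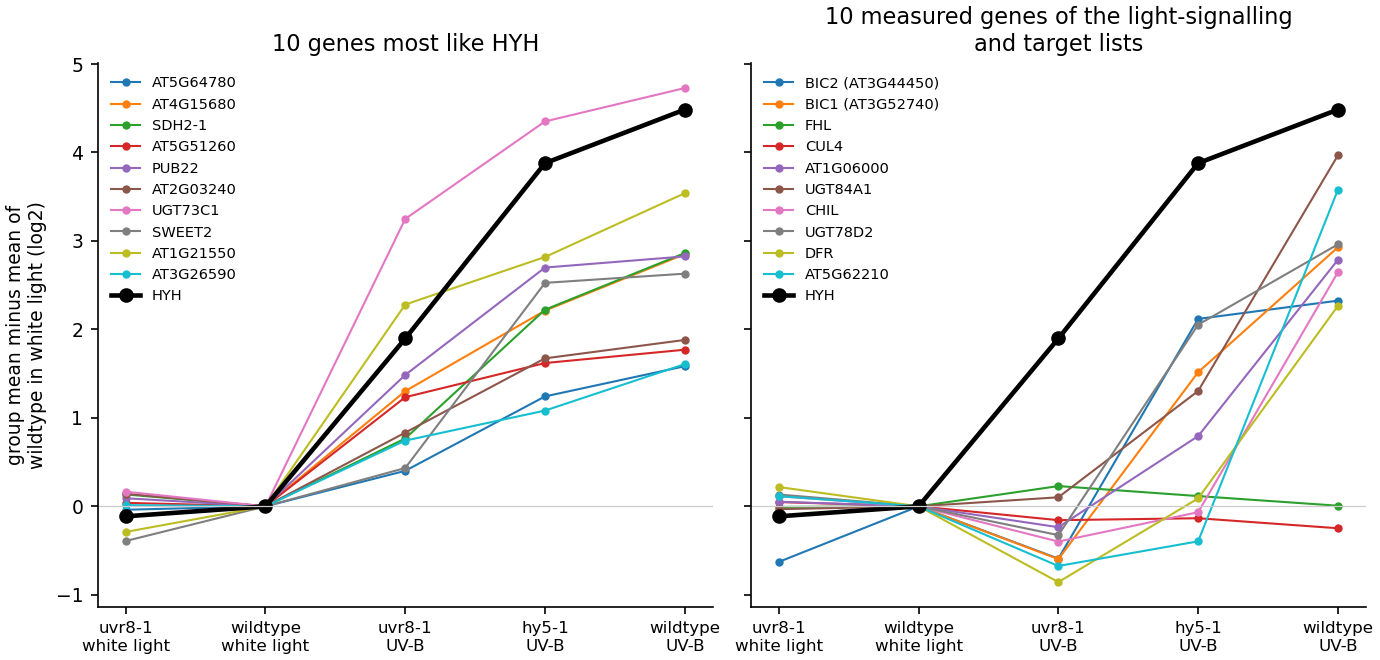
Group means minus the wildtype white light mean (log2) on the y axis, with the 5 groups in rising order of HYH on the x axis and HYH in black in both panels. At left, the 10 most like genes rise in the same order as HYH under UV-B. At right, the 4 light signalling and 6 target genes lie near or below 0 in uvr8-1 under UV-B, where HYH is at 1.90.

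The 5 genes of most opposite pattern had an r from −0.966 to −0.952 with HYH. They were AT1G27190, the histone gene HTB4, AT4G39900, AT5G58930 and AT1G67750, of the pectate lyase family. All 5 were lower under UV-B in wildtype, by −1.96 to −1.10, and in uvr8-1, by −1.43 to −0.52. Among all probe sets 18.3% were called as lower in wildtype and 19% in uvr8-1. The opposite pattern to HYH chose these genes, so their falls follow from the choice. HTB4 had means of 8.65 ± 0.17 and 7.30 ± 0.17 in white light and UV-B in wildtype, and 8.57 ± 0.09 and 7.72 ± 0.29 in uvr8-1.

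Of the genes beside HYH on chromosome 3, none of those measured was called higher under UV-B. Of the 10 nearest in the gene table, 4 had a probe set of their own. Among all probe sets 12.2% were called as higher in wildtype and 12.9% in uvr8-1, so none of 4 is near that background. In wildtype IAA31, the neighbour on one side and a gene of auxin signalling, was at −0.00 ± 0.10 under UV-B, AT3G17620 at −0.25 ± 0.12 and CHX19, of a cation exchanger, at 0.07 ± 0.16. BSH, of a chromatin remodelling complex, fell by 0.61. In uvr8-1 BSH fell by 0.76, and the other 3 were between −0.18 and 0.14.

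Other settings moved the size of the HYH differences more than their calls. The rise in wildtype stayed between 4.11 and 4.88 in the 15 fits without 1 array, and that in uvr8-1 between 1.69 and 2.50. No fit of this kind called the difference of responses, whose adjusted p ran from 0.0699 to 0.347. Leaving out an array of another group changes the error but not the size of a difference between groups. Fewer than the 15 fits therefore test the size of each difference.

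**Figure D5:**
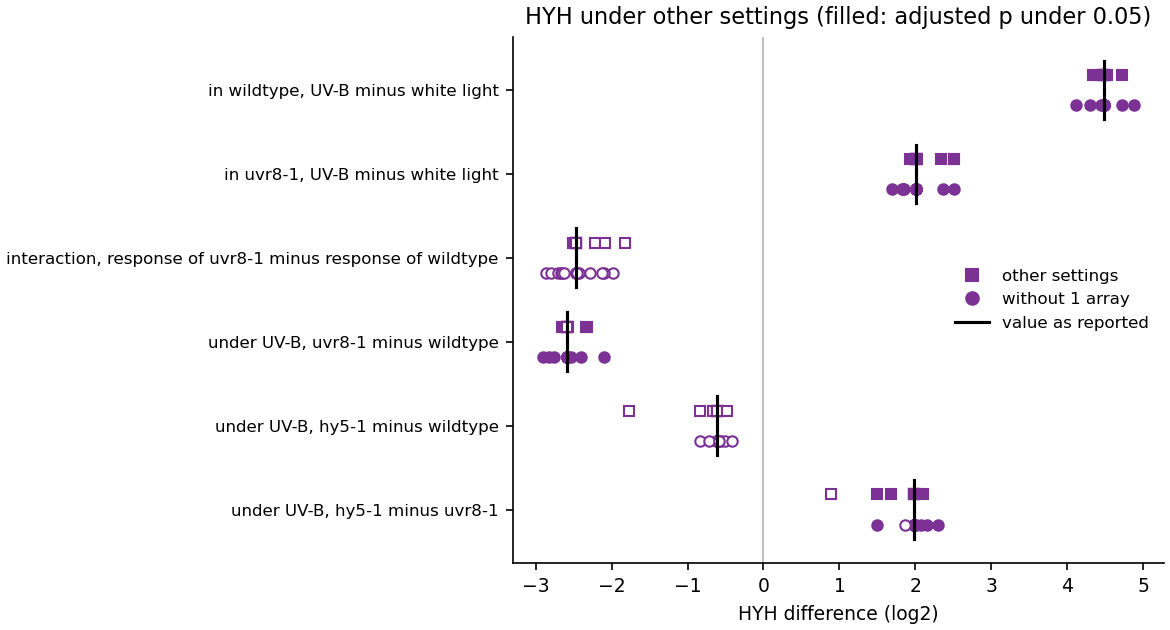
HYH differences (log2) on the x axis under other settings (squares) and without 1 array (circles), with a black line for the value as reported and filled symbols for an adjusted p under 0.05. All values of the rise in wildtype (4.48 as reported) and in uvr8-1 (2.01) are filled, those of the difference of responses (−2.47) are open, uvr8-1 minus wildtype under UV-B (−2.59) has 1 open value, and hy5-1 minus uvr8-1 (1.98) has 2 open values, at 0.89 and 1.87.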

How the data were processed

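RNA from leaves was hybridised to 1-colour Affymetrix ATH1 arrays. The deposited values are log2 intensities, which the authors made with RMA, per the submitters' processing notes; its version is not given in the sources used here. Groups and replicate numbers came from the sample titles. The 64 control probe sets were set aside. Of 22746 probe sets, 13513 were paired with 1 gene, 503 with several and 8730 with none. Of 13356 genes, each represented by its single-gene probe set of highest mean, 13286 matched RefSeq.

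One limma 3.58.1 model (R 4.3.3) fitted 1 mean for each group over all 15 arrays, with no filter on signal (10 residual and 3.09 prior degrees of freedom), after the procedure was tested on simulated data. Tests were 2-sided, with Benjamini-Hochberg adjustment over all probe sets and calls at an adjusted p under 0.05. Errors after ± are SE of a log2 difference, or SD of a mean. Python 3.11.15, pandas 2.3.3, numpy 2.4.6 and matplotlib 3.10.9 made tables and figures.

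HYH and the lists were chosen with earlier results of these data known. Named are all members of a list with up to 12 measured genes, otherwise the 6 smallest p among those called per comparison, and the 10 genes most and 5 least like HYH. BZIP17, BZIP60 in hy5-1 and the neighbours of HYH fall outside this rule and were chosen after their values were seen. Vascular, floral and seed markers had 0 measured members. Alternatives were median centring, quantile normalisation, an intensity trend, robust or no moderation, array weights, a dim filter, only the compared groups, a replicate block, the 3' minus 5' index as covariate and leaving out each array. Leaving out the UV-B arrays of replicate 1 in wildtype and uvr8-1 together was added after the data were seen. Equally numbered wildtype and uvr8-1 arrays deviated together from their group means (r = 0.104 to 0.684 in all 18 pairs), so the numbers were taken as paired there, but not for hy5-1 (−0.148 to 0.197). The main limma model did not use this pairing, and the replicate block was run only as an alternative. The series' design text calls the replicates biological and does not say which plants they came from. The p-values of limma therefore set a difference against the spread between these samples only, pooled over the 5 groups and moderated over probe sets.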

Additional observations from a re-analysis of the deposited data

Results flagged for a closer look

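The UV-B response differed between uvr8-1 and wildtype, by the interaction test of limma, for 10 of the genes named beside HYH, each with a smaller response in uvr8-1 (0.857% of all probe sets were called). The response of uvr8-1 minus that of wildtype was −4.37 for AT5G62210, −3.83 for UGT84A1, −3.42 for UGT78D2, −3.42 for AT3G52740 (BIC1), −3.34 for DFR, −3.16 for CHIL and −3.07 for AT1G06000. Among the genes most like HYH it was −2.23 for SDH2-1, −1.64 for UGT73C1 and −1.19 for AT2G03240. The genes most like HYH were chosen on these same arrays, and the target list draws partly on published work on these samples. The number and direction of these calls therefore follow in part from the choice. The call of AT2G03240 was lost in 12 of the alternatives (adjusted p up to 0.139), that of AT1G06000 in 8 (up to 0.1) and that of DFR in 1 (0.0805). HYH itself, at −2.47, did not pass this test.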

How the results depend on the processing

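HYH rose in wildtype and in uvr8-1 under every alternative run, and its difference of responses was called under none. Beyond the fits without 1 array its adjusted p ran from 0.0733 to 0.463, and its value from −2.51 with quantile normalisation to −1.83 with array weights. Without 1 array the value ran from −2.87 to −1.98, the latter without uvr8-1 UV-B replicate 1. That array had the lowest array weight (0.407). Fitting only the groups compared ended the call of uvr8-1 minus wildtype under UV-B (−2.59, adjusted p = 0.0726). With the 3' minus 5' index as covariate, hy5-1 minus uvr8-1 under UV-B (0.89, adjusted p = 1.00) and hy5-1 under UV-B minus wildtype in white light (2.66, adjusted p = 0.272) were not called. Without 1 array, uvr8-1 minus wildtype in white light ran from −0.49 to 0.28, turning sign in 3 fits (0.28, 0.04 and 0.08), and hy5-1 minus uvr8-1 ran from 1.49 to 2.30, with 14 of 15 called. In this balanced design the replicate block over all arrays cannot move the HYH differences, only their errors, and no call of HYH changed. With it the adjusted p of limma was 1.98e-05 for the rise in wildtype (4.48), 0.00507 for that in uvr8-1 (2.01) and 0.158 for the difference of responses (−2.47). Over the 12 wildtype and uvr8-1 arrays alone, a block added after the data were seen, these were 0.000139, 0.0114 and 0.22. The block changed the called target genes in uvr8-1 from 0 to 2, and the bZIP genes called between hy5-1 and wildtype from 0 to 2, as many as after quantile normalisation. Array weights gave 12 bZIP calls in uvr8-1 in place of 7. Leaving out wildtype UV-B replicate 2 gave 4 called target genes in uvr8-1 in place of 0, and the bZIP calls between hy5-1 and uvr8-1, 2 as reported, ran from 0 to 3. Of 2650 values for 99 called differences of other named genes, 156 lost the call and none reversed. The light signalling genes called between hy5-1 and wildtype went from 1 to 0 with the covariate or only the groups compared, those in uvr8-1 from 0 to 1 with only the groups compared, and those in the difference of responses from 1 to 2 without uvr8-1 white light replicate 2. Fitting only the groups compared gave 3 called target genes in uvr8-1. All target genes except UGT84A1 (0.13) lay below 0 in uvr8-1, so these gained calls, UGT84A1 aside, were falls under UV-B. Of the 10 genes most like HYH, 6 stayed with Spearman correlation, 6 over 12 arrays and 3 over the 5 group means. The causes of these changes were not tested.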
